A study of Mus musculus with 8 samples.

Results

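The comparison described here set the stress granule-enriched RNA of control mouse embryonic fibroblasts against the total RNA of control cells. It used 4 of the 8 libraries of the study, 2 of granule RNA and 2 of total RNA, taken by their labels alone and fitted on their own. All genes that passed an expression filter, 17364 of the 39017 in the count table, are the members. The cells came from E13.5 mouse embryos. Control granule cells had received 500 µM sodium arsenite for 30 min before granules were enriched by centrifugation, and control total cells were unstressed. RNA of both kinds was selected with oligo(dT) beads for poly(A) tails before sequencing. The other 4 libraries of the study are the same fractions from cells that lost Mettl3, the catalytic subunit of the enzyme that writes N6-methyladenosine (m6A) on mRNA, through Cre recombination induced by 48 h in 500 nM 4-hydroxytamoxifen. Strain, the alleles of the control cells, whether controls received the drug and whether replicates came from separate embryos are not given in the sources used here. P-values therefore measure the spread between these libraries, which are labelled as biological replicates. Fraction and arsenite differ together between the groups, so the change that the stress made in the cell and the change that the centrifugation selected cannot be told apart anywhere below.

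Stress granules are cytoplasmic assemblies of mRNA and protein that form when translation initiation stalls. Arsenite, an oxidative and thiol-reactive stressor, leads to phosphorylation of the initiation factor eIF2 alpha, polysomes run off, and the released mRNAs condense with RNA-binding proteins such as G3bp1 and Tia1. The same stress switches on transcription of immediate-early and heat shock genes within minutes. In fibroblasts both responses are well known, and granules are known to favour long and poorly translated mRNAs.

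The 4 libraries held between 67257220 and 118426371 counts, and 3 counts in the smallest were worth 0.0446 normalised counts (CPM, the count scaled to a common library total). Granule replicates were closer to each other than total replicates. For 10135 genes averaging 5 CPM or more, replicates differed by a median of 0.1 on the log2 scale in granule and 0.31 in total RNA, and 0.178% and 2.3% of these genes differed more than 2-fold. Mettl3, whose deletion defines the other genotype, was at 25.6 and 27.1 CPM in the control total libraries and 15.1 and 14.8 CPM in the control granule libraries. Knockout libraries held 5.41 and 7.71 CPM in total and 5.77 and 6.43 CPM in granule RNA, below every control library. Of 10 fibroblast markers all were tested and their summed level was 8124 and 7706 CPM in total against 7258 and 6759 CPM in granule RNA, with 1 higher (Vim) and 5 lower (Col3a1, Fn1, Dcn, Thy1, Pdgfra). The 7 macrophage markers summed to 62.2 and 73.9 against 37.6 and 31.4 CPM, with 3 lower and 0 higher. The 6 epithelial markers summed to 378 and 258.7 against 665 and 720.3 CPM, mostly from Krt18, with 2 higher (Krt18 and Krt8) and 0 lower. Among those not called, Epcam stayed between 0.941 and 1.56 CPM. Krt5 was at 28.8 and 31.1 CPM in total and 9.51 and 29.7 CPM in granule RNA. Endothelial markers summed to at most 16.9 CPM with 4 of 6 under 1 CPM in all libraries, and skeletal muscle markers to at most 7.20 CPM with 5 of 6 under 1 CPM. Neural markers summed to 50.3 and 47.3 CPM in total against 33.1 and 28.9 CPM (2 higher, Map2 and Elavl4, and 1 lower, Tubb3). Chondrocyte markers summed to 33.1 and 29.8 CPM in total against 49.2 and 48.3 CPM (1 higher, Sox9, and 1 lower, Col2a1). The muscle-defining genes Myod1 and Myf5 were at 0 in 2 libraries each. In bulk RNA, fewer cells of a type and less RNA per cell cannot be told apart, and the part of these markers in the results below was not tested.

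Of the 17364 genes tested, 7354 (42.4%) were called at an adjusted p under 0.05, 3861 (22.2%) higher and 3493 (20.1%) lower in the granule fraction. The levels of the 2 groups did not overlap for 76.7% of genes, and 1604 genes (9.24%) passed a test for a change beyond a log2 fold change of 1. The median log2 fold change of all genes was -0.06, against -0.29 with upper-quartile scaling and -0.19 with library size alone. Whether a list stands above or below is therefore read relative to the median of all genes. List medians below are printed without subtracting it unless this is said. With the GC trend of each library removed the median of all genes was 0.04, and with the length trend removed -0.07. The share of calls that were higher was 52.5%, but 36.3% with upper-quartile scaling and 41.7% with library size alone. The number of calls fell when either granule library was left out and rose when either total library was left out.

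Where the average reached 5 CPM, the most depleted called mRNA was that of Extl1, a glycosyltransferase-like protein of heparan sulfate synthesis. It was at 29.6 and 37.5 CPM in total and 0.466 and 0.608 CPM in granule RNA (log2 fold change -5.83, SE 0.26, adjusted p = 9.71e-06). Usp18, a protease that removes the ubiquitin-like protein Isg15, came next at -4.88, followed by the secreted protein gene Angptl6 at -4.79 (another gene overlapping 16.8% of its exons) and the antiviral oligoadenylate synthetases Oas1a at -4.79 and Oas1g at -4.73. The chemokine Ccl20 (-4.54), the nicotinamide methyltransferase Nnmt (-4.54), the peptide hormone Adm2 (-4.53), the cholesterol acyltransferase Soat2 (-4.33) and the pseudokinase Trib3 (-4.28) completed the 10 lowest. These values are log2 fold changes of granule over total, and both granule libraries lay below both total libraries in each gene. At the other end stood Arc, an immediate-early gene best known from synapses, at 4.54. It was followed by the transcription factor genes Nr4a1 at 3.70 and Fosb at 3.68, the mitotic kinesins Kif20b at 3.61 and Kif18a at 3.54, Depdc1a at 3.59, the kinetochore proteins Cenpe at 3.52 and Cenpf at 3.45, the zinc finger gene Zfp52 at 3.49 and the chaperone Hspa1a at 3.44. The largest gain in CPM, not scaled to transcript length, was that of Actb, which went from 6012 and 4278 CPM to 9556 and 10489 CPM, followed by the chaperone Hsp90aa1, the nonmuscle myosin Myh9, Hsp90ab1 and Hspa8. The largest loss was that of the noncoding RNA Gm26917, followed by Sqstm1, Rplp1, Rplp0 and Eef2, the last at -0.23 and not called (adjusted p = 0.43).

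**Figure D1:**
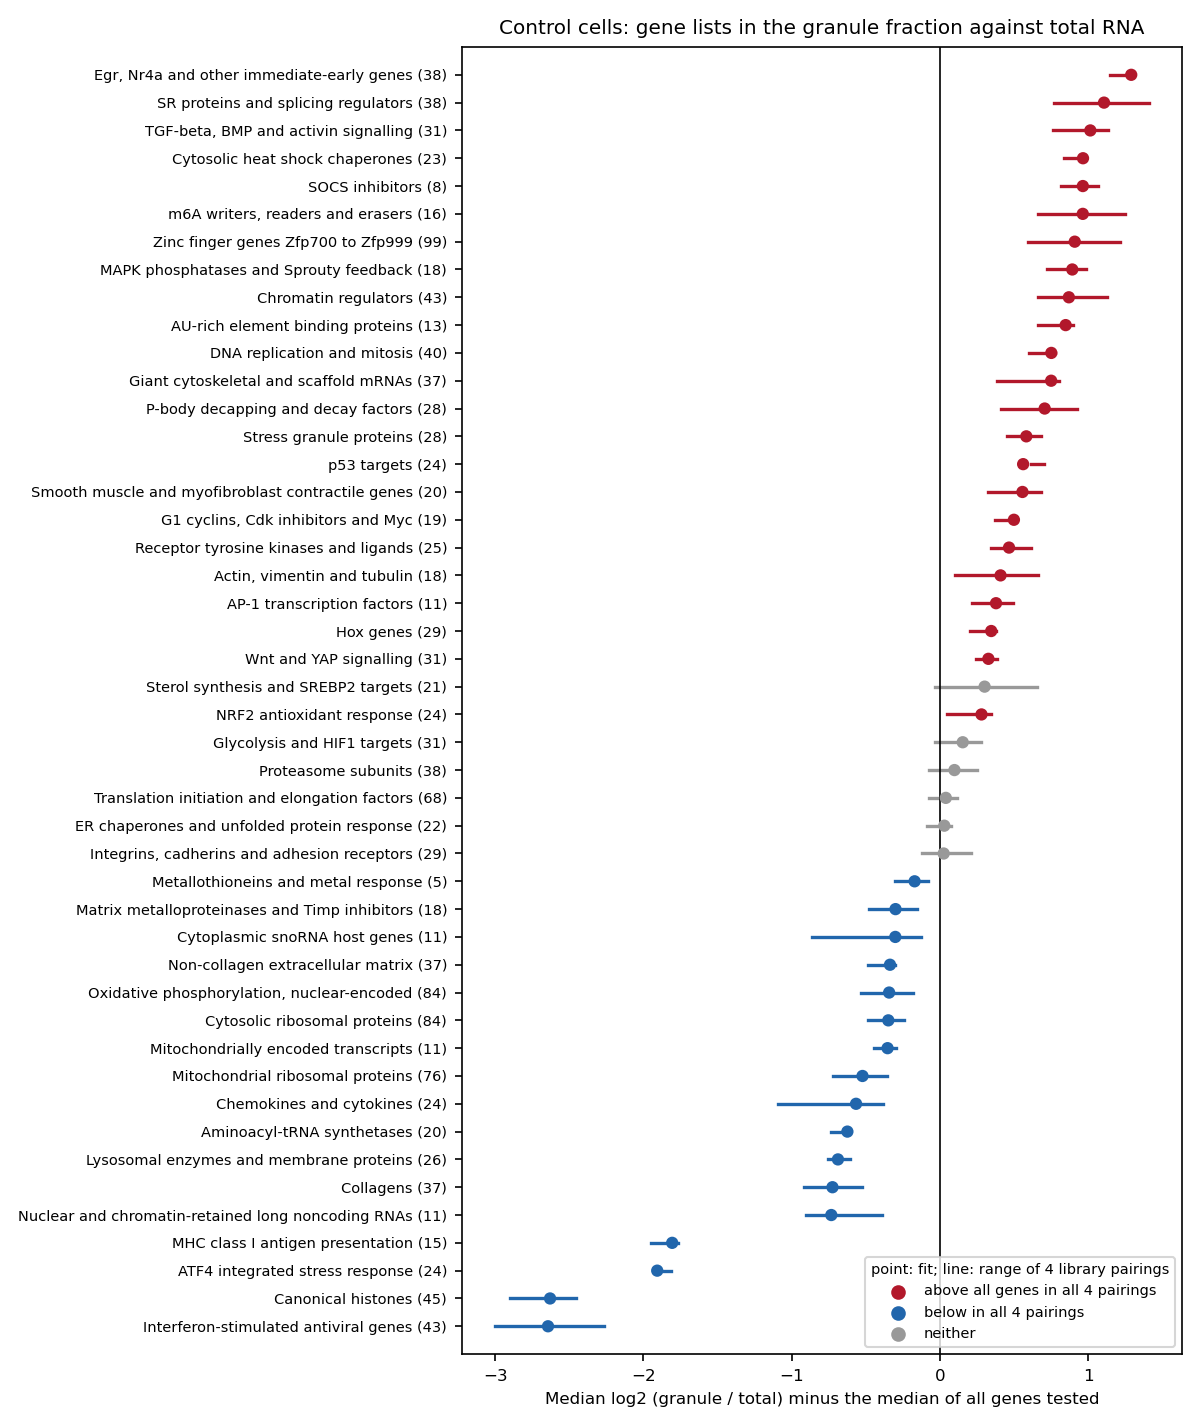
Median log2 fold change (granule over total) of the tested members of 46 gene lists, minus the median of all 17364 genes tested. Points come from the fit, lines span the medians in the 4 pairings of a granule with a total library, numbers in brackets are tested members. 23 lists lay above all genes in all 4 pairings, 17 below and 6 neither, and interferon-stimulated genes (-2.64) and canonical histones (-2.63) lay lowest.

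Functional classes were described with 46 gene lists, whose 1425 tested genes span signalling, stress responses, RNA-binding proteins, organelles and noncoding RNA. A list was said to stand above or below all genes where its median did so in all 4 pairings of a granule with a total library. By that rule 23 lists stood above, 17 below and 6 neither. The pairings share the same 4 libraries and hold no spread between genes. The rule therefore cannot tell a trait of a class from a list of genes drawn at random. Another gene overlaps more than 15% of the exons of 11 members named below without that remark, so their counts are uncertain, namely Gins2 (67.3%), Fosl1 (57.2%), Ftl1 (34.6%), Mmp19 (28.3%), Rpl5 (26.7%), Cdk4 (19.7%), Snhg12 (19.6%), Cryab (17%), Hsp90b1 (15.7%), Mrps24 (15.4%) and Aars (15.1%). No test of a list was made, and the counts below are to be read beside the 22.2% of all genes called higher and the 20.1% called lower. Statements that the groups did not overlap are to be read beside the 76.7% of all genes of which this was true.

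**Figure D2:**
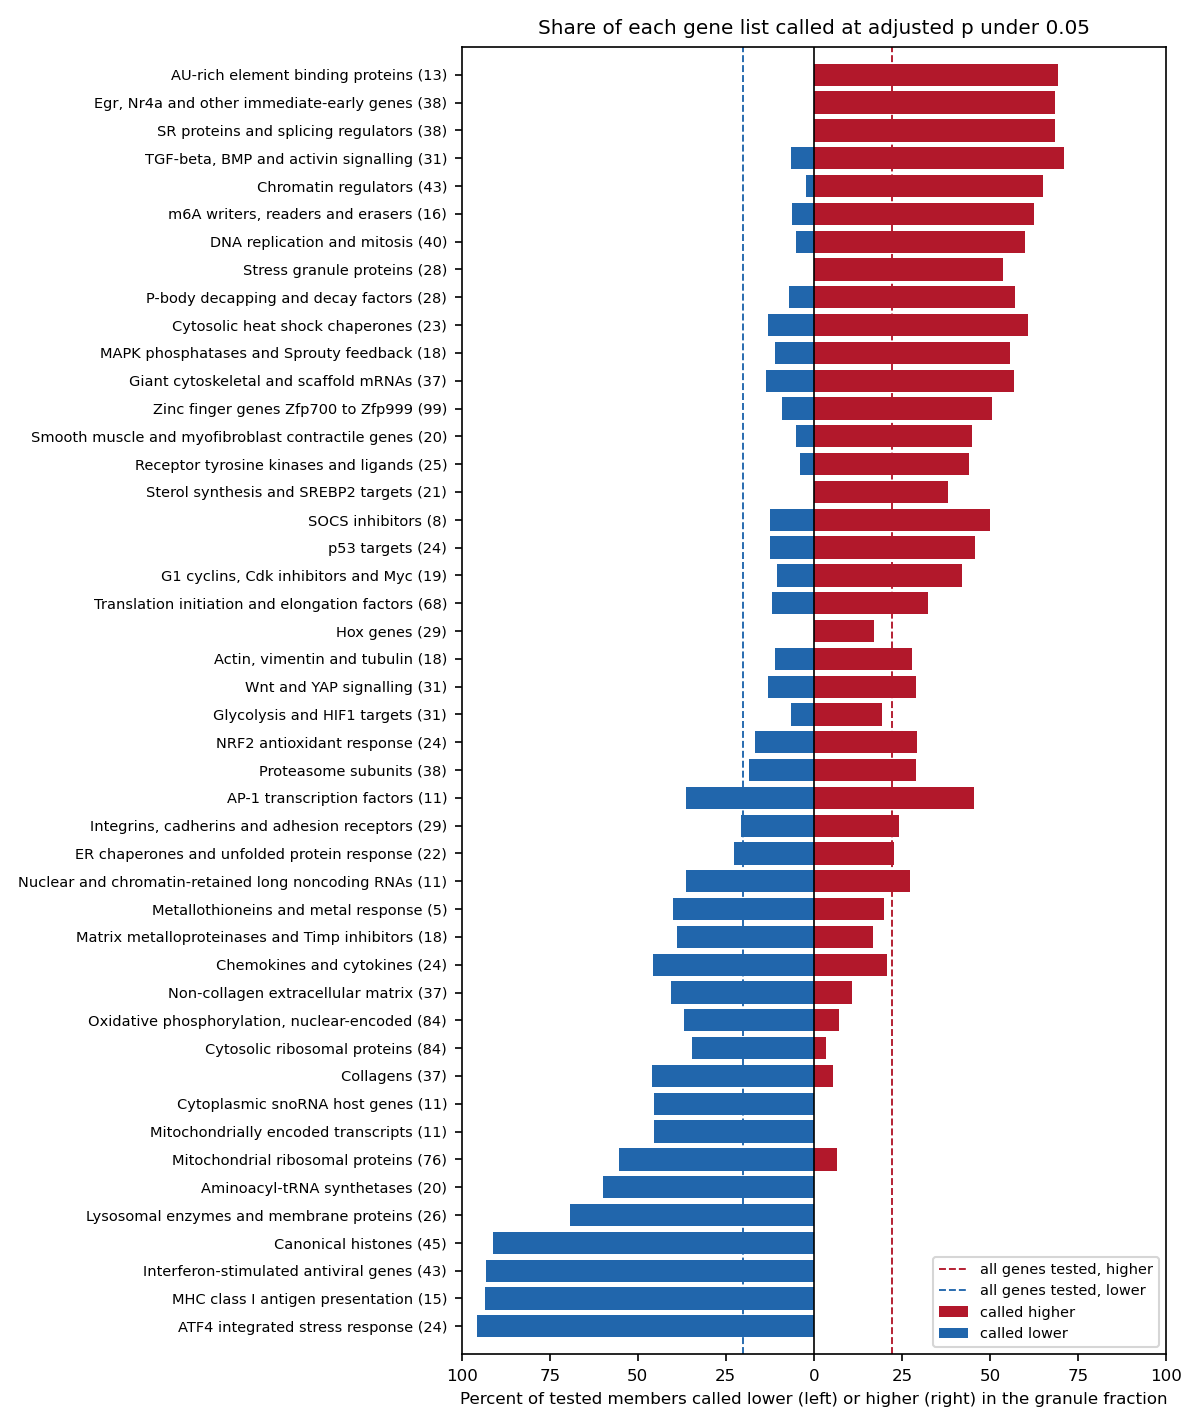
Percent of the tested members of each of 46 gene lists called higher (right) or lower (left) in the granule fraction, with dashed lines at the shares of all genes tested (22.2% and 20.1%). The ATF4 (95.8%), MHC class I (93.3%), interferon (93.0%) and histone (91.1%) lists had the largest shares called lower, and none of the 4 had a member called higher.

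Immediate-early genes, which are transcribed within minutes of a stimulus without new protein synthesis, were higher in the granule fraction. Of 38 tested members of the Egr and Nr4a list, 26 were called higher and none lower, with a median log2 fold change of 1.23. Arc was at 10.1 and 8.48 CPM in total and 208 and 189 CPM in granule RNA (log2 fold change 4.54, SE 0.22, adjusted p = 9.71e-06). Nr4a1, an orphan nuclear receptor, was at 40 and 37.6 CPM in total and 489 and 439 CPM in granule RNA (log2 fold change 3.70, SE 0.20, adjusted p = 1.23e-05). Egr2, a zinc finger transcription factor, was at 4 and 4.04 CPM in total against 36 and 32.5 CPM (log2 fold change 3.21, SE 0.21, adjusted p = 2.28e-05). In each of these genes every granule library exceeded both total libraries. Fos, which pairs with Jun proteins in the transcription factor AP-1, was at 13.47 and 13.1 CPM in total and 93.3 and 86.3 CPM in granule RNA (log2 fold change 2.88, SE 0.19, adjusted p = 2.31e-05). The AP-1 list was divided. Fosb (3.68), Fos, Junb (2.07), Jun (1.62) and Fosl1 (1.23) were higher, and Jdp2 (-1.31), Atf3 (-1.24), Batf (-1.19) and Batf3 (-1.13) were lower. Jdp2 and Atf3 encode AP-1 family members that can repress transcription, and Atf3 is also a target of ATF4. Atf3 was at 274 and 263 CPM in total and 108 and 101 CPM in granule RNA, with no overlap.

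Feedback inhibitors of MAP kinase signalling were more often higher than lower. Of 18 tested, 10 were higher, 6 were not called and 2 (Dusp4 at -1.04 and Dusp2 at -0.68) lower, with a median of 0.83. Dusp5, a nuclear phosphatase that inactivates ERK, was at 31.7 and 31.5 CPM in total and 277 and 261 CPM in granule RNA (log2 fold change 3.21, SE 0.18, adjusted p = 1.74e-05). Another gene overlaps 22.1% of its exonic bases. Dusp1, which dephosphorylates p38 and JNK, was at 49.6 and 48.7 CPM in total against 245 and 238 CPM (log2 fold change 2.42, SE 0.18, adjusted p = 3.35e-05). Spry4, a Sprouty protein that restrains receptor tyrosine kinases, was at 8.91 and 12 CPM in total against 77.4 and 64 CPM (log2 fold change 2.89, SE 0.22, adjusted p = 3.37e-05). The total and granule libraries did not overlap in any of these genes.

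Promoters are shown for the immediate-early and feedback genes because their induction is known to run through the CArG box (CC, 6 bases of A or T, GG), bound by serum response factor, and the CRE, bound by CREB. The sequences are RefSeq promoters of build GRCm38.p6, read in the direction of the gene, with the motif in capitals. They were chosen after values were seen, for holding the motif.
Egr2 (chr10:67537454-67537543, plus strand): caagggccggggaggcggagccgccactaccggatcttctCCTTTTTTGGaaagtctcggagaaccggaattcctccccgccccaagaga
Zfp36 (chr7:28379237-28379326, minus strand): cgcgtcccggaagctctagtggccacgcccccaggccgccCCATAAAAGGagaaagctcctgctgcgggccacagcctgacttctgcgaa
Dusp1 (chr17:26508566-26508655, minus strand): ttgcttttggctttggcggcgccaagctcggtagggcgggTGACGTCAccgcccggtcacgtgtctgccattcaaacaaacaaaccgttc
Errfi1 (chr4:150854979-150855068, plus strand): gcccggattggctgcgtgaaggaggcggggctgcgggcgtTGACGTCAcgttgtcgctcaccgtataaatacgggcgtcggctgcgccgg
Between 250 bases before and 50 bases after the start, a CArG box was found on either strand in 3 of the 26 immediate-early promoters with a sequence (11.5%), those of Egr2, Srf and Zfp36, against 1.81% of the 27025 genes with a promoter. The CRE, TGACGTCA, was found in 4 of 26 (15.4%), those of Btg2, Maff, Plk2 and Errfi1, and in 2 of 14 feedback genes (14.3%), Dusp1 and Dusp8, against 2.03% of all. Among tested genes with a promoter the CRE was in 3.28%, in 3.63% of those called higher and in 3.43% of those called lower. For the CArG box these shares were 1.64%, 2.0% and 1.2%. Zfp36 was at 33.5 and 31.1 CPM in total and 132 and 126 CPM in granule RNA (log2 fold change 2.12, SE 0.18, adjusted p = 6.37e-05), and Errfi1, an inhibitor of the EGF receptor, had a log2 fold change of 2.12 (adjusted p = 6.19e-05). In the 10 promoters of AP-1 genes neither motif was found (0 of 10 for each). A motif match is a description of letters and not a binding site, and no match says only that these letters are not in this window.

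Heat shock chaperones, which refold damaged proteins and are induced by heat shock factor 1, were mostly higher in the granule fraction. Of 23 tested, 14 were higher and 3 lower (Cryab -1.09, Hspb8 -1.06 and Fkbp4 -0.53), with a median of 0.90. Hsp90aa1, the inducible cytosolic Hsp90, was at 283 and 436 CPM in total and 3026 and 2875 CPM in granule RNA (log2 fold change 3.17, SE 0.23, adjusted p = 3.08e-05). Its constitutive relative Hsp90ab1 was at 3015 and 2654 CPM in total against 4174 and 4223 CPM (log2 fold change 0.69, SE 0.19, adjusted p = 0.0176), and Hspa8, the constitutive Hsp70, at 1264 and 1126 CPM in total against 2273 and 2452 CPM (log2 fold change 1.10, SE 0.19, adjusted p = 0.00187). All 3 were higher in each granule library, with the inducible gene changing by 9-fold and the constitutive genes by 1.61-fold and 2.15-fold. Hspa1a, the inducible Hsp70, was at 0.981 and 0.983 CPM in total and 8.94 and 10.7 CPM in granule RNA (log2 fold change 3.44, SE 0.25, adjusted p = 3.02e-05). Its counts are uncertain, because it has the near-identical copy Hspa1b and another gene overlaps 19% of its exons. Hspa4l, a nucleotide exchange factor of the Hsp110 family, was at 16.9 and 28.1 CPM in total against 182 and 164 CPM (log2 fold change 3.08).

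The heat shock element, 3 inverted repeats of GAA (GAA, any 2 bases, TTC, any 2 bases, GAA, on either strand), is shown in 2 promoters of the chaperone list that hold it, with the capitals marking the repeats.
Hsph1 (chr5:149636287-149636340, minus strand): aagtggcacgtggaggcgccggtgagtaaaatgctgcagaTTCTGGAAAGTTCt
Chordc1 (chr9:18292223-18292312, plus strand): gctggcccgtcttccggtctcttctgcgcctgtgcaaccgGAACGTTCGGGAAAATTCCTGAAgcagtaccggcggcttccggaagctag
It was found in 4 of the 18 chaperone promoters with a sequence (22.2%), those of Hsph1, Hspd1, Chordc1 and Hspe1, against 0.662% of all genes with a promoter. Among tested genes with a promoter it was in 0.556%, in 0.518% of those called higher and in 0.359% of those called lower. Hsph1, an Hsp110 chaperone, was at 89.2 and 97.9 CPM in total and 271 and 255 CPM in granule RNA (log2 fold change 1.62, SE 0.17, adjusted p = 0.00019), and Chordc1, a co-chaperone of Hsp90, was at 21.6 and 37.2 CPM in total against 68.1 and 63.9 CPM (log2 fold change 1.30, SE 0.24, adjusted p = 0.00267).

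Genes of the oxidative stress factor NRF2 were split. Of 24 tested, 7 were higher and 4 lower, with a median of 0.22. Gclm, a subunit of the rate-limiting enzyme of glutathione synthesis, was at 35.4 and 36.2 CPM in total and 113 and 106 CPM in granule RNA (log2 fold change 1.74, SE 0.18, adjusted p = 0.00015), and Srxn1, sulfiredoxin, had a log2 fold change of 1.05. In the other direction, Sqstm1, the autophagy receptor p62, was at 3439 and 3341 CPM in total and 993 and 1023 CPM in granule RNA (log2 fold change -1.63, SE 0.18, adjusted p = 0.000239, another gene overlapping 17.3% of its exons). Slc7a11, the cystine transporter and also an ATF4 target, was at 19 and 48.2 CPM in total against 6.37 and 6.64 CPM (log2 fold change -2.22, SE 0.36, adjusted p = 0.00135), and its total replicates differed more than 2-fold. Ftl1, ferritin light chain (-0.77), and Blvrb, biliverdin reductase B (-0.71), were the other 2 lower genes. Of 5 metallothionein and metal response genes, 2 were lower, the metallothioneins Mt1 and Mt2, which bind zinc and other thiol-reactive metals, and 1 was higher, the zinc importer Slc39a10 (1.84). Mt1 was at 279.7 and 237 CPM in total and 86.1 and 101 CPM in granule RNA (log2 fold change -1.34, SE 0.20, adjusted p = 0.000858), and Mt2 at 172 and 199 CPM in total against 24.2 and 27.1 CPM (log2 fold change -2.73, SE 0.19, adjusted p = 2.46e-05). Another gene overlaps 73.5% of the Mt2 exons, so its counts are uncertain. In knockout cells Mt1 was at 243 and 143 CPM in total and 297 and 241 CPM in granule RNA, where the groups overlapped, and the difference between genotypes did not pass its test (adjusted p = 0.108).

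Targets of ATF4, the transcription factor whose own mRNA is translated when eIF2 alpha is phosphorylated, formed the list with the largest share called lower. Of 24 tested, 23 were lower and none higher, with a median of -1.97. In all 24 the groups did not overlap, beside 76.7% of all genes, and Ddit4 (-0.28) was the member not called. Trib3, a pseudokinase, was at 535 and 431 CPM in total and 21.4 and 24.5 CPM in granule RNA (log2 fold change -4.28, SE 0.22, adjusted p = 1.23e-05). Chac1, which degrades glutathione, was at 295 and 255 CPM in total against 34.8 and 35.8 CPM (log2 fold change -2.84, SE 0.19, adjusted p = 2.48e-05). Shmt2, the mitochondrial serine hydroxymethyltransferase, was at 1812 and 1742 CPM in total against 380.3 and 415 CPM (log2 fold change -2.04, SE 0.18, adjusted p = 8.01e-05). These were losses of 19.4-fold, 7.17-fold and 4.11-fold relative to total RNA. Atf4 mRNA itself was at 1002 and 939 CPM in total and 507 and 527 CPM in granule RNA (log2 fold change -0.79, SE 0.18, adjusted p = 0.00686), a smaller difference than those of these 3 targets. Vldlr, a lipoprotein receptor, was at 37.8 and 75.7 CPM in total against 5.38 and 5.68 CPM (log2 fold change -3.22, SE 0.30, adjusted p = 9.74e-05), and its total replicates lay apart from each other.

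The C/EBP-ATF response element (CARE, TGATGNAA on either strand) is the binding sequence known for ATF4, and is shown where members of the list hold it.
Trib3 (chr2:152344011-152344086, minus strand): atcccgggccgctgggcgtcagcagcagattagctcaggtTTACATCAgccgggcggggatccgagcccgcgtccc
Chac1 (chr2:119351009-119351098, plus strand): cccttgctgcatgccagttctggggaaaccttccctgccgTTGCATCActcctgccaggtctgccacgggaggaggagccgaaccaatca
Asns (chr6:7693183-7693272, minus strand): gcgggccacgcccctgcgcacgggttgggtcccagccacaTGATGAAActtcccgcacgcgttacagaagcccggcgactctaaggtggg
It was found in 7 of 23 promoters of the ATF4 list (30.4%) against 4.51% of all genes with a promoter, and the 7 members with it had a median log2 fold change of -2.41 against -1.45 for the 16 without. Asns, asparagine synthetase, was at 416 and 429.9 CPM in total and 114 and 119.8 CPM in granule RNA (log2 fold change -1.73, SE 0.17, adjusted p = 0.000135). Among all 12048 tested genes with a promoter the element was in 2.96%, in 4.14% of those called lower and in 2.66% of those called higher.

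Aminoacyl-tRNA synthetases, which charge tRNAs and of which several are known ATF4 targets, were lower as well. Of 20 tested, 12 were lower and none higher, with a median of -0.69. Sars was at 1285 and 1158 CPM in total and 348 and 374 CPM in granule RNA (log2 fold change -1.64, SE 0.18, adjusted p = 0.000252), Wars had a log2 fold change of -1.46, Gars of -1.28 and Aars of -1.09. The CARE was in 5 of 12 promoters of this list (41.7%), those of Aars, Gars, Iars, Tars and Yars, and these had a median of -1.09 against -0.24 for the 7 without. Genes of the endoplasmic reticulum unfolded protein response did not move together. Of 22, 5 were higher and 5 lower, and the median of -0.03 stood neither above nor below all genes. Herpud1, a component of ER-associated degradation, was at 389.7 and 309.9 CPM in total and 60.9 and 64.5 CPM in granule RNA (log2 fold change -2.36, SE 0.20, adjusted p = 6.44e-05), followed by Ern1 (-1.57), Xbp1 (-1.27), Hyou1 (-0.69) and Atf6 (-0.60). The higher members were Hsp90b1 (1.33), Dnajc3 (1.18), Dnajb9 (0.80), Canx (0.65) and Pdia3 (0.62).

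**Figure D3:**
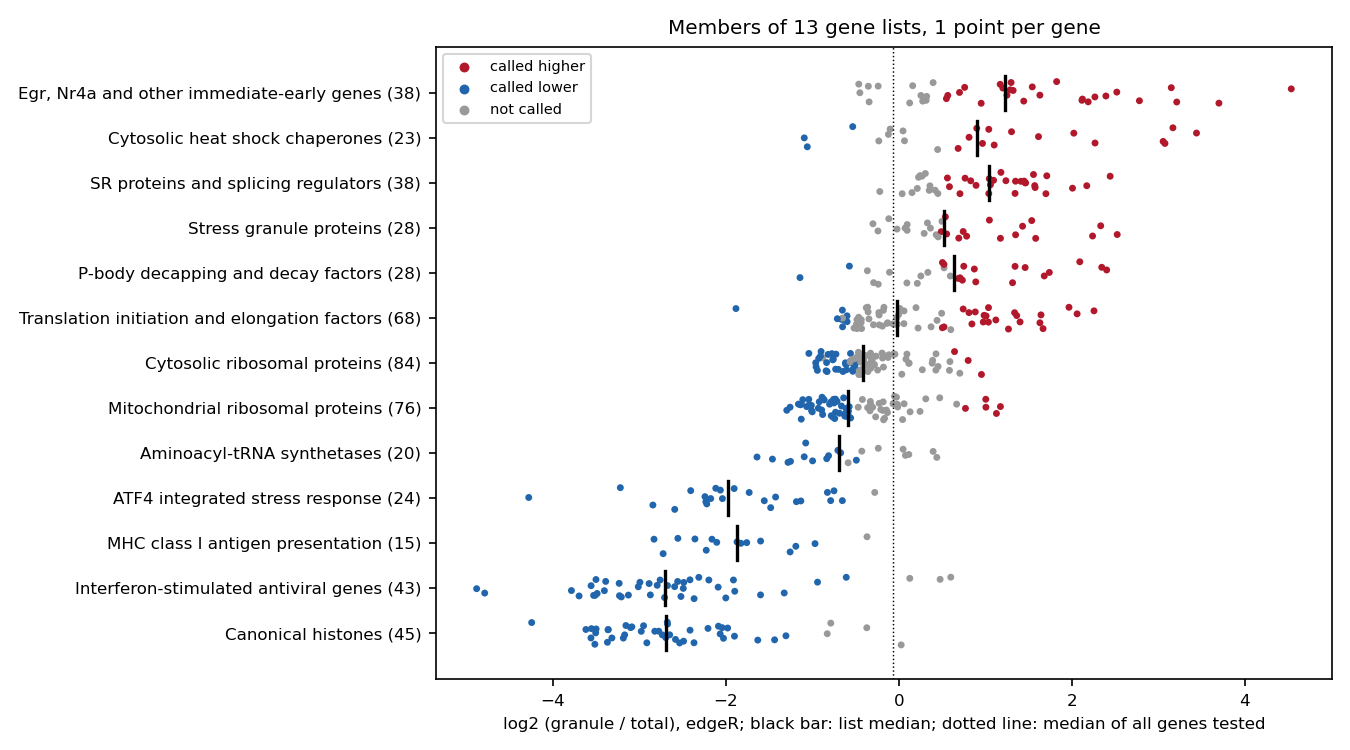
Log2 fold change (granule over total) of each tested member of 13 gene lists, 1 point per gene, red or blue where called higher or lower and grey where not called. Bars mark list medians and the dotted line the median of all genes (-0.06). Immediate-early genes spread to the right up to 4.54 while ATF4, MHC class I, interferon and histone genes lie almost wholly to the left.

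Interferon-stimulated antiviral genes, which cells transcribe in response to interferon, were present in the unstressed control total RNA and strongly lower in the granule fraction. Of 43 tested, 40 were lower and none higher, with a median of -2.71. The groups did not overlap in 41, beside 76.7% of all genes. Usp18 was at 246 and 315 CPM in total and 8.75 and 8.68 CPM in granule RNA (log2 fold change -4.88, SE 0.21, adjusted p = 9.71e-06). Oas1a, an enzyme that makes the activator of RNase L, was at 132 and 123 CPM in total against 4.77 and 3.74 CPM (log2 fold change -4.79, SE 0.23, adjusted p = 9.71e-06), and shares sequence with other Oas1 genes. Isg15, a ubiquitin-like protein, was at 302 and 417 CPM in total against 32 and 30.1 CPM (log2 fold change -3.40, SE 0.21, adjusted p = 1.92e-05). The losses came to 29.4-fold, 27.6-fold and 10.6-fold. Bst2, the virus-tethering membrane protein tetherin, was at 658 and 745 CPM in total and 51.3 and 47.9 CPM in granule RNA (log2 fold change -3.70, SE 0.19, adjusted p = 1.14e-05). Mx2, a dynamin-like antiviral GTPase, was at 31.1 and 52.3 CPM in total against 2.76 and 2.75 CPM (log2 fold change -3.78). The 3 members not called were Ifih1, Ifit2 and Eif2ak2, of which Eif2ak2, the kinase PKR, was at 28.1 and 57.7 CPM in total and 58.9 and 59.3 CPM in granule RNA. Ifit1, a close relative of Ifit2 that binds viral RNA, was lower by less than most of the list, at -0.94.

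The interferon-stimulated response element (ISRE, read here as GAAA, any 2 bases, GAAA, on either strand) is shown for 4 members that hold it, with all copies in the window in capitals.
Isg15 (chr4:156200847-156200936, minus strand): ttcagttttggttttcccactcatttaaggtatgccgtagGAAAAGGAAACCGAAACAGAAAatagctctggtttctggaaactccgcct
Stat2 (chr10:128270248-128270325, plus strand): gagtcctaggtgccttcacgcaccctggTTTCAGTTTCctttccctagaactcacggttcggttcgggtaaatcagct
Oas1a (chr5:120907496-120907585, minus strand): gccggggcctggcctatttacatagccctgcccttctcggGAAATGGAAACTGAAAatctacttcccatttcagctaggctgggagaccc
Bst2 (chr8:71537553-71537642, minus strand): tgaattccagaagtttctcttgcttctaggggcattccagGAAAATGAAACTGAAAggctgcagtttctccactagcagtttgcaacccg
It was found in 17 of 31 promoters of the list (54.8%) against 3.99% of all genes with a promoter. Members with it had a median log2 fold change of -2.67 and members without it -2.66. Among all tested genes with a promoter it was in 6.45% of those called lower and 3.14% of those called higher. Stat2, which encodes a subunit of the factor that binds the element, was itself at 149 and 197 CPM in total and 20.3 and 19.4 CPM in granule RNA (log2 fold change -2.99, SE 0.20, adjusted p = 2.28e-05).

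Genes of MHC class I antigen presentation, which interferon also induces, followed. Of 15 tested, 14 were lower and none higher, with a median of -1.87, and Erap1 (-0.37) was not called. H2-D1, a class I heavy chain, was at 679 and 712 CPM in total and 98 and 95.1 CPM in granule RNA (log2 fold change -2.72, SE 0.18, adjusted p = 2.28e-05), and its counts are uncertain because H2 genes share long stretches. B2m, the light chain, was at 1139 and 1207 CPM in total against 356 and 356 CPM (log2 fold change -1.60, SE 0.17, adjusted p = 0.000204). Tap1, a subunit of the peptide transporter, had a log2 fold change of -2.83, and H2-K1 of -2.55. The proteasome list as a whole stood neither above nor below all genes, with 11 of 38 higher and 7 lower. Within it the 3 catalytic subunits of the immunoproteasome were the lowest members, Psmb9 at -2.23, Psmb8 at -1.87 and Psmb10 at -1.82. Psmb10 was at 106 and 95.6 CPM in total and 24.2 and 28.1 CPM in granule RNA, and Psmc6, a subunit of the regulatory particle, was higher at 1.97.

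The list of chemokines and cytokines, which also holds EGF-family ligands and a receptor, was divided. Of its higher members, Cxcl12 was the only chemokine. Of 24 tested, 11 were lower and 5 higher, with a median of -0.63. Ccl20 was at 8.04 and 14.2 CPM in total and 0.429 and 0.439 CPM in granule RNA (log2 fold change -4.54, SE 0.32, adjusted p = 2.91e-05). Ccl5, a chemokine that interferon induces, was at 85 and 90.7 CPM in total against 14.8 and 17.2 CPM (log2 fold change -2.34, SE 0.19, adjusted p = 4.71e-05), and Csf1, the macrophage growth factor, had a log2 fold change of -0.76. The 5 higher members were Ereg, Hbegf, Il1rl1, Areg and Cxcl12. Ereg, Hbegf and Areg all encode ligands of the EGF receptor family. Ereg was at 3.88 and 5.69 CPM in total and 41.7 and 35.5 CPM in granule RNA (log2 fold change 3.14, SE 0.24, adjusted p = 3.37e-05), and Hbegf at 85.1 and 88.5 CPM in total against 509 and 496 CPM (log2 fold change 2.66, SE 0.18, adjusted p = 2.32e-05). Areg was at 1.58 and 2.09 CPM in total against 6.27 and 5.27 CPM (log2 fold change 1.78). Il1rl1, the receptor of interleukin 33, was at 2.31, and Cxcl12 at 1.03.

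Many of these mRNAs carry AU-rich elements in the 3′ UTR, which recruit decay factors such as Zfp36. The nonamer TTATTTATT was searched on the sense strand of the 3′ UTR of the longest protein-coding transcript (GENCODE M21). It was in 10 of 24 members of the chemokine and cytokine list (41.7%), with Ereg and Areg among them. It was also in 9 of 38 immediate-early genes (23.7%) and in 7.8% of the 14450 protein-coding genes. The first site of genes on both sides of the comparison is shown with 9 bases on either side, with the nonamer in capitals.
Fos: gttttcaatTTATTTATTaagatggat
Dusp1: agctggtccTTATTTATTtaacacccc
Zfp36: atgacgactTTATTTATTgtattaaga
Ereg: tgtcagtttTTATTTATTttttgttag
Areg: atttaagtgTTATTTATTttatagctc
Cxcl1: tttatgtatTTATTTATTccacaaagt
The nonamer was thus present in genes that were higher (Fos 2.88, Dusp1 2.42, Zfp36 2.12, Ereg 3.14, Areg 1.78) and in Cxcl1, a neutrophil chemokine that was lower at 213 and 299 CPM in total and 61.8 and 55.3 CPM in granule RNA (log2 fold change -1.996, SE 0.20, adjusted p = 0.000143). Over all protein-coding genes, the 1127 with at least 1 nonamer had a median log2 fold change of 0.27 and the 13323 without it -0.07. Genes with the nonamer also had longer 3′ UTRs, with medians of 2294 and 1004 nt. In 3 equal groups of genes by 3′ UTR length, the medians with and without the nonamer were 0.36 and 0.25 in the longest. They were 0.16 and -0.06 in the middle group and -0.10 and -0.30 in the shortest. In the same order, median 3′ UTR GC content was lower with the nonamer, at 42.14% against 43.52%, 42.84% against 45.46% and 43.48% against 46.41%. The part of GC content in these differences was not tested.

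Of 28 tested mRNAs that encode stress granule proteins, 15 were higher in the granule fraction, 13 were not called and none was lower, with a median of 0.52. Fmr1, the fragile X protein, was at 26.1 and 56.5 CPM in total and 231 and 201 CPM in granule RNA (log2 fold change 2.53, SE 0.31, adjusted p = 0.000365). Ddx3x, an RNA helicase, was at 92.1 and 186 CPM in total against 658 and 616 CPM (log2 fold change 2.33, SE 0.28, adjusted p = 0.00036), and in both genes total replicate 2 was more than 2-fold above total replicate 1. Pabpc1, the cytoplasmic poly(A)-binding protein, was at 2172 and 2100.4 CPM in total against 3289.8 and 3289 CPM (log2 fold change 0.74, SE 0.18, adjusted p = 0.00966). G3bp1, the protein that nucleates granules, was at 437 and 475 CPM in total and 509.5 and 515 CPM in granule RNA and was not called (log2 fold change 0.29, adjusted p = 0.185), and its log2 fold change was -0.21 with the length trend removed. Fxr1, a relative of Fmr1, was higher at 2.24.

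Decay and decapping factors of P bodies, the other cytoplasmic mRNA granule, had 16 of 28 members higher and 2 lower (Dcp1b -1.14 and Edc4 -0.57), with a median of 0.64. Tnrc6a, the GW182 protein that links Argonaute to deadenylases, was at 26.2 and 42.2 CPM in total and 171 and 159 CPM in granule RNA (log2 fold change 2.40, SE 0.23, adjusted p = 0.000107), and its relative Tnrc6b was at 2.35. Proteins that bind AU-rich elements had 9 of 13 members higher and none lower, with a median of 0.78, led by Rc3h2 (2.37) and Zfp36 (2.12). Of 16 writers, readers and erasers of m6A, 10 were higher and 1, Mettl3 itself at -0.69 (another gene overlaps 18.4% of its exons), was lower. The nuclear reader Ythdc1 was at 1.78 and the cytoplasmic reader Ythdf3 at 1.65. SR proteins and other splicing regulators were called higher in 26 of 38 cases and lower in none, with a median of 1.04. Luc7l3 was at 22.4 and 30.4 CPM in total and 135 and 128 CPM in granule RNA (log2 fold change 2.44, SE 0.20, adjusted p = 4.68e-05), and Hnrnph1 at 79.3 and 137 CPM in total against 469 and 419.7 CPM (log2 fold change 2.17, SE 0.24, adjusted p = 0.000239). Transcripts of this list had a median GC content of 44.8% against 50.5% for all genes, and its median fell to 0.65 when the GC trend of each library was removed.

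**Figure D4:**
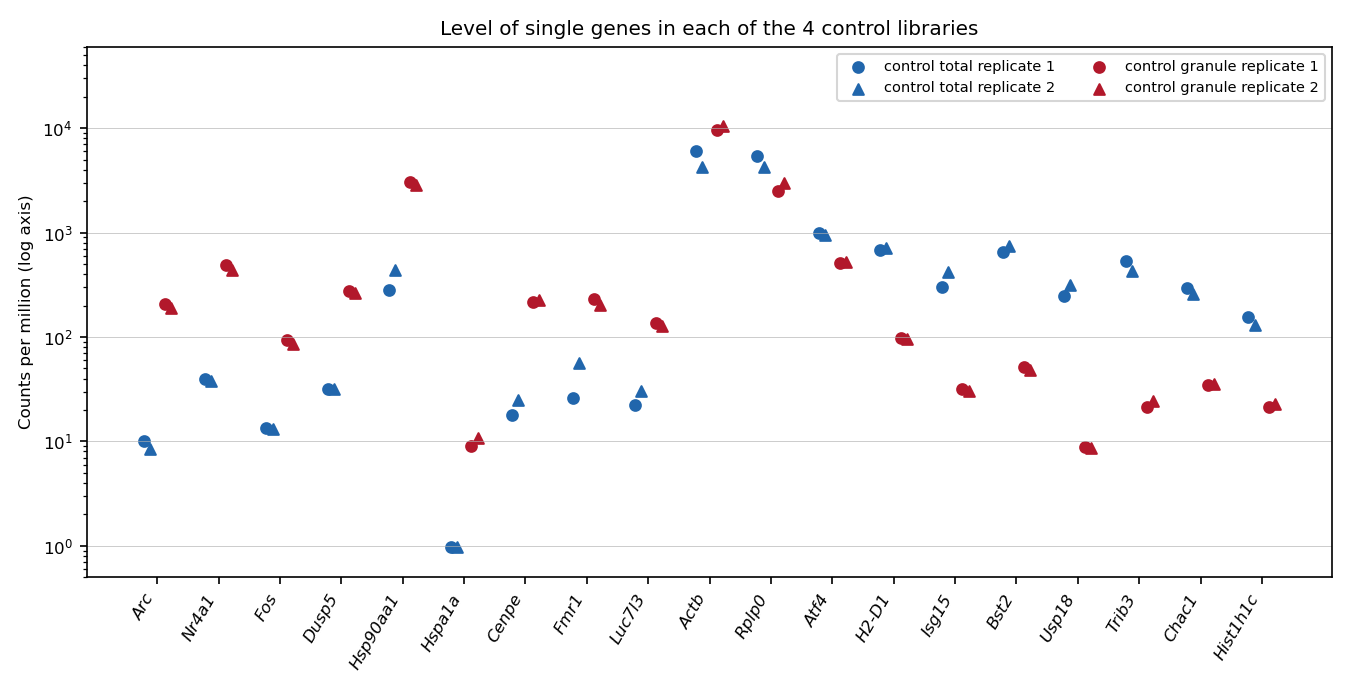
CPM (log axis) of 19 genes in each of the 4 control libraries, blue for total and red for granule RNA, circles for replicate 1 and triangles for replicate 2. The 2 colours do not overlap in any of these genes, which was so for 76.7% of all genes tested. Granule replicates lie closer together than total replicates in genes such as Fmr1.

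Chromatin regulators, zinc finger genes and giant mRNAs were higher on balance. Of 43 chromatin regulators 28 were higher and 1 lower (Kdm4a, -1.002), with a median of 0.81. Bptf, the large subunit of the NURF remodeller, was at 96.2 and 137 CPM in total and 449 and 412 CPM in granule RNA (log2 fold change 2.02, SE 0.20, adjusted p = 0.000137), and Arid2, of the PBAF remodeller, was at 2.03. Among 99 zinc finger genes with symbols Zfp700 to Zfp999, 50 were higher and 9 lower, with a median of 0.85, led by Zfp948 at 3.85 and 5.87 CPM in total and 40.9 and 38.4 CPM in granule RNA (log2 fold change 3.16, SE 0.24, adjusted p = 3.35e-05). Of 37 giant cytoskeletal and scaffold mRNAs 21 were higher and 5 lower, with a median of 0.69. Akap9, a centrosomal scaffold of protein kinase A, was at 13.6 and 20.8 CPM in total against 73.7 and 72 CPM (log2 fold change 2.22, SE 0.22, adjusted p = 0.000136), and Map1b, a microtubule-associated protein, at 2.04, whereas Tln2, talin 2, was lower at -1.46. With the GC trend removed the zinc finger median was 0.27, and with the length trend removed the median was 0.17 for chromatin regulators and -0.08 for giant mRNAs, which is no higher than that of all genes.

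mRNAs of the cell division machinery were higher in the granule fraction. Of 40 genes of DNA replication and mitosis 24 were higher and 2 lower (Gins2 -0.60 and Mcm2 -0.53), with a median of 0.69. The higher members with the largest changes act in mitosis. Cenpe, a kinetochore motor, was at 17.7 and 24.8 CPM in total and 219 and 226 CPM in granule RNA (log2 fold change 3.52, SE 0.21, adjusted p = 1.92e-05), Cenpf was at 9.17 and 12.3 CPM in total against 108 and 107 CPM (log2 fold change 3.45, SE 0.21, adjusted p = 1.92e-05) and the proliferation antigen Mki67 at 40.6 and 50.9 CPM in total against 321 and 299 CPM (log2 fold change 2.89, SE 0.19, adjusted p = 2.28e-05). Every granule library exceeded both total libraries in these 3. Among 19 G1 cyclins and Cdk inhibitors 8 were higher and 2 lower (Cdkn2a -0.75 and Cdk4 -0.65), and Ccnd1, cyclin D1, was at 89.5 and 72.9 CPM in total against 230.4 and 230.03 CPM (log2 fold change 1.62, SE 0.19, adjusted p = 0.000344, another gene overlapping 23.4% of its exons). Of 24 p53 targets 11 were higher and 3 lower. Ccng1, cyclin G1, was at 59.2 and 113 CPM in total and 317 and 310.1 CPM in granule RNA (log2 fold change 2.002, SE 0.26, adjusted p = 0.000527), Mdm2, the p53 ubiquitin ligase, was at 1.74, and Gdf15, a secreted stress cytokine that ATF4 also induces, was lower at 58.6 and 46.6 against 7.28 and 6.38 CPM (log2 fold change -2.83, SE 0.23, adjusted p = 4.54e-05), together with Bax (-0.77) and Fas (-0.76).

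Canonical histone genes were lower, with 41 of 45 called lower and none higher and a median of -2.69. Most canonical histone mRNAs are known to end in a stem-loop without a poly(A) tail, and both fractions were selected for poly(A). Hist1h1c, a linker histone whose mRNA can be polyadenylated, was at 156 and 129 CPM in total and 21.3 and 22.6 CPM in granule RNA (log2 fold change -2.58, SE 0.20, adjusted p = 4.11e-05), and Hist1h2bc at 45.1 and 51.3 CPM in total against 7.1 and 8.15 CPM (log2 fold change -2.53, SE 0.20, adjusted p = 4.19e-05). Histone genes share near-identical sequence, so single members are uncertain. In knockout cells the same list had a median of -0.31, with -1.01 to 1.29 relative to all genes over the 4 pairings, and 0 of 45 members passed the interaction test.

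Components of the translation machinery differed by kind. Cytosolic ribosomal proteins had 29 of 84 members lower and 3 higher (Rpl21 0.96, Rpl5 0.80 and Rpl7 0.64), with a median of -0.41. Rplp0, a stalk protein, was at 5385 and 4228 CPM in total and 2479.6 and 2985 CPM in granule RNA (log2 fold change -0.70, SE 0.22, adjusted p = 0.0282), and Rplp1 at 4308 and 3975 CPM in total against 1602 and 2366 CPM (log2 fold change -0.94, SE 0.23, adjusted p = 0.00954). Pseudogenes near-identical to these genes make their counts uncertain. A start site with a C followed by pyrimidines, the mark of terminal oligopyrimidine mRNAs, was in 14 of 63 of their promoters (22.2%) against 3.01% of all, and members with it had a median of -0.51 against -0.41 without. Mitochondrial ribosomal proteins had 42 of 76 members lower and 5 higher, with a median of -0.59, including Mrps24 at 78.6 and 64.9 against 23.3 and 32 CPM (-1.26). Initiation and elongation factors stood neither above nor below, with 22 of 68 higher and 8 lower. Eif5b, which joins the ribosomal subunits, was at 67.8 and 97.6 CPM in total and 368 and 354 CPM in granule RNA (log2 fold change 2.26, SE 0.20, adjusted p = 7.82e-05, another gene overlapping 16.8% of its exons), and Eif3a, the largest subunit of eIF3, at 275 and 457 CPM in total against 1428 and 1354 CPM (log2 fold change 2.06, SE 0.23, adjusted p = 0.000258). Eif4ebp1, the inhibitor of eIF4E and a known ATF4 target, was lower, at 831 and 779 against 183 and 219 CPM (log2 fold change -1.88, SE 0.19, adjusted p = 0.000144).

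Mitochondrial and lysosomal genes were lower on balance. Nuclear-encoded oxidative phosphorylation genes had 31 of 84 members lower and 6 higher, with a median of -0.41. Uqcrq, a small subunit of complex III, was at 374 and 358 CPM in total and 88.5 and 122 CPM in granule RNA (log2 fold change -1.67, SE 0.21, adjusted p = 0.000397), while its neighbours in the complex Uqcrh (1.11) and Uqcrb (1.03) were higher. Of 11 transcripts of the mitochondrial genome 5 were lower and none higher, among them mt-Co1, a subunit of cytochrome oxidase, at 2013 and 2294 CPM in total and 1343 and 1405 CPM in granule RNA (log2 fold change -0.52, SE 0.18, adjusted p = 0.0387). Mitochondrial transcripts held 0.73% and 0.881% of the counts of the total libraries and 0.59% and 0.678% of the granule libraries. Lysosomal enzymes and membrane proteins had 18 of 26 members lower and none higher, with a median of -0.75. With the GC trend removed the medians were -0.22 for oxidative phosphorylation genes, -1.43 for transcripts of the mitochondrial genome (from -0.42) and -0.43 for lysosomal genes. Lamp1, the main lysosomal membrane glycoprotein, was at 1958 and 1962 CPM in total and 1075 and 1136 CPM in granule RNA (log2 fold change -0.70, SE 0.18, adjusted p = 0.0113), and Hexa, a subunit of hexosaminidase, at 449 and 387 CPM in total against 157 and 163 CPM (log2 fold change -1.27, SE 0.18, adjusted p = 0.000873).

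Secreted matrix genes, whose mRNAs are translated at the endoplasmic reticulum, were lower on balance with exceptions. Of 37 collagen genes 17 were lower and 2 higher (Col8a1 1.18 and Col12a1 0.64), with a median of -0.79. Col3a1 was at 307 and 289 CPM in total and 142 and 114 CPM in granule RNA (log2 fold change -1.09, SE 0.19, adjusted p = 0.00197). Other matrix genes had 15 of 37 members lower and 4 higher, with a median of -0.40. With the GC trend removed the medians were -0.46 for collagens and -0.08 for the other matrix genes, and with the length trend removed -1.18 and -0.68. Igfbp4, an IGF-binding protein, was at 121 and 136 CPM in total against 17.7 and 16 CPM (log2 fold change -2.80, SE 0.19, adjusted p = 2.32e-05), and Fn1, fibronectin, at 2470.3 and 2857 CPM in total against 1575 and 1290.1 CPM (log2 fold change -0.77, SE 0.19, adjusted p = 0.0106). The 4 higher members were Thbs1 at 456 and 561 CPM in total and 1826 and 1485 CPM in granule RNA (log2 fold change 1.83, SE 0.20, adjusted p = 0.000191), Vcan (1.45), Emilin1 (1.15) and Lox (0.79). Thrombospondin 1, the product of Thbs1, activates latent TGF-beta. Among metalloproteinases and their inhibitors 7 of 18 were lower, led by Mmp19 (-2.25), and 3 higher, Adamts5 (2.22), Mmp16 (0.996) and Adamts1 (0.63).

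Signalling genes outside the stress pathways stood mostly above all genes. The TGF-beta, BMP and activin list had 22 of 31 members higher and 2 lower (Tgfb1 -0.96 and Bmp2 -0.96), with a median of 0.95. Inhba, the activin A subunit, was at 31.3 and 46.4 CPM in total and 279 and 282 CPM in granule RNA (log2 fold change 2.98, SE 0.21, adjusted p = 3.02e-05), and Tgfbr1, the type I receptor, was at 1.79. Receptor tyrosine kinases had 11 of 25 members higher, with Met, the receptor of hepatocyte growth factor, at 2.29, and 1 lower, Pdgfra (-0.74). Of 8 SOCS inhibitors of cytokine signalling 4 were higher (Socs5 1.66, Socs3 1.61, Socs6 1.45 and Socs4 1.22) and Socs1, which interferon induces, was lower (-1.18). Wnt and YAP genes had 9 of 31 higher and 4 lower. Of 29 Hox genes 5 were higher and none lower, a share of 17.2% beside the 22.2% of all genes. Contractile genes had 9 of 20 higher, and Acta2, smooth muscle actin, was the only lower member at -0.70. Among 18 actin, vimentin and tubulin genes 5 were higher, led by Actb at log2 fold change 1.08, SE 0.23, adjusted p = 0.00584, and 2 lower, Tmsb10 (-0.92) and Tubb3, a neuronal tubulin at 39.9 and 31.5 CPM in total and 3.84 and 4.37 CPM in granule RNA (log2 fold change -3.002, SE 0.23, adjusted p = 3.9e-05). Sterol synthesis genes had 8 of 21 higher and none lower, among them Hmgcs1, of the first committed steps of the mevalonate pathway (2.02), but their median was not above all genes in every pairing. Glycolysis (6 of 31 higher, 2 lower) and adhesion receptor genes (7 of 29 higher, 6 lower) stood neither above nor below.

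Long noncoding RNAs listed as retained in the nucleus moved in both directions. Of 11 tested 3 were higher and 4 lower, with a median of -0.80. Relative to all genes this was -0.73, and 0.21 among members averaging 5 CPM or more. Gm26917, annotated as a long noncoding RNA, was at 6129.8 and 6444 CPM in total and 295 and 235 CPM in granule RNA (log2 fold change -4.44, SE 0.22, adjusted p = 1.05e-05). Its knockout total replicates lay far apart, at 180 and 5146 CPM, and what RNA its reads come from was not tested. Neat1, the scaffold of nuclear paraspeckles, was at 214 and 406 CPM in total and 90.5 and 86.5 CPM in granule RNA (log2 fold change -1.67, SE 0.26, adjusted p = 0.00119). Malat1, a marker of nuclear speckles, was at 229 and 542 CPM in total against 671 and 652 CPM (log2 fold change 0.92, SE 0.31, adjusted p = 0.0407), and Tug1 at 13.6 and 27.3 CPM in total against 65 and 58.5 CPM (log2 fold change 1.73, SE 0.28, adjusted p = 0.00149). Total replicate 2 was more than 2-fold above total replicate 1 in both Malat1 and Tug1, and each granule library was above both. Firre (-1.34) and Meg3 (-1.06) were lower and Airn (0.89) higher. Cytoplasmic snoRNA host genes, whose spliced RNAs are degraded on ribosomes, had 5 of 11 members lower and none higher, led by Snhg12 at -1.92. By annotated kind, 24.5% of 14647 protein-coding genes were called higher and 21.2% lower. Of 100 small nucleolar RNA genes 4 were higher and 53 lower, with a median of -1.63, but their median level was 0.357 CPM and 38% of them overlapped another gene by more than 15% of their bases. Antisense genes (494) had 7.89% higher and 14.8% lower, and since whether counting used strand is not given in the sources used here, reads of an antisense gene and its partner cannot be told apart.

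The shape of the transcript went along with the ratio across genes. Over 14450 protein-coding genes, which are not independent replicates, Spearman's rho of the log2 fold change was -0.44 with the GC content of the longest protein-coding transcript (-0.53 to -0.33 in the 4 pairings), 0.28 with its length (0.20 to 0.32) and 0.24 with the length of its 3′ UTR (0.18 to 0.28). When genes were divided into 10 equal groups by GC content, in the lowest group, from 31.5% to 42.0%, the median log2 fold change was 1.09, with 62.1% called higher and 5.19% lower. In the highest group, from 58.4% to 75.9%, it was -0.47, with 6.99% called higher and 36.0% lower. In 10 equal groups by length, the shortest, up to 1262 nt, had a median of -0.47 and the longest, from 6602 nt, of 0.49. The 2 features were then crossed, each in 3 equal groups. Genes in the group of low GC content and long transcripts had a median of 0.89 and 60.3% called higher, and genes of high GC content and short transcripts had a median of -0.53 and 4.78% called higher.

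**Figure D5:**
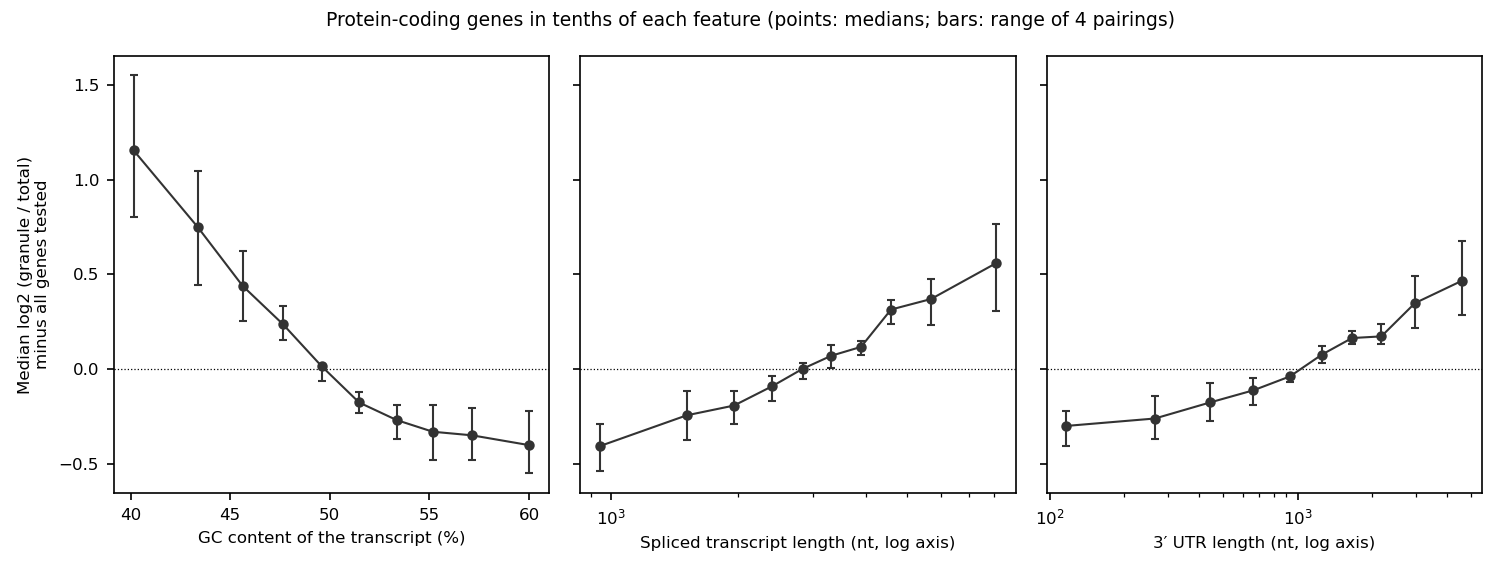
Median log2 fold change (granule over total, minus the median of all genes tested) of protein-coding genes in 10 equal groups of transcript GC content, spliced length (log axis) and 3′ UTR length (log axis), with bars for the range of the 4 pairings of libraries. The GC panel falls from 1.15 in the lowest group to -0.40 in the highest, and the length panels rise from -0.41 to 0.56 and from -0.30 to 0.47.

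GC content also separated the replicates of total RNA. The rho of replicate 1 minus replicate 2 with transcript GC content was 0.61 for total and -0.10 for granule RNA, and that with length -0.23 and 0.42. With only total replicate 2 in the comparison, the rho of the fold change with GC content was -0.33. When the GC trend of each library was removed, 7929 genes were called, and 5704 of the 7354 calls kept their direction and call. The interferon, ATF4, MHC class I, histone and immediate-early medians were then -2.75, -1.66, -1.75, -2.37 and 1.43. Of the 46 list medians, 23 moved by more than 1 SD over the 4 pairings, among them zinc finger genes (from 0.85 to 0.27), SOCS inhibitors (0.90 to 0.43), collagens (-0.79 to -0.46) and other matrix genes (-0.40 to -0.08).

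The granule to total ratio of control cells was set beside that of Mettl3 knockout cells with the interaction term of a model on all 8 libraries. Of 18952 genes tested, 98 (0.517%) differed between genotypes, 76 (0.401%) higher and 22 (0.116%) lower in the knockout. The count was 3712 without knockout total replicate 1 and 9349 without knockout total replicate 2. With the replicate number as a block it was 0 in edgeR, and the genes named below as passing had adjusted p-values of 0.125 to 0.131. A fit of the 4 knockout libraries on their own called 0 genes with edgeR, with 4363 genes at an unadjusted p under 0.05 of 18141 tested. The knockout total replicates lay far apart in some genes, in either direction, such as B2m at 25700 and 2313 CPM and Bst2 at 184 and 1642 CPM. Of the 23 lists above all genes in control cells, 8 were above in all 4 knockout pairings and 5 below. Of the 17 lists below in control cells, 8 were below in all 4 knockout pairings and 1 above. The ATF4 list had a median of -1.97 in control and -1.72 in knockout cells, the immediate-early list 1.23 and 1.04, the interferon list -2.71 and -1.64 and the p53 list 0.50 and -0.96. Relative to all genes, the 4 knockout pairings gave -2.10 to -1.12, 0.70 to 1.35, -1.77 to -1.49 and -1.125 to -0.45 for these lists in turn. Of the genes in these 4 lists, 2 passed the interaction test, which were the interferon-stimulated Ifi27l2a (-3.56 in control and 1.48 in knockout cells, adjusted p = 0.0394) and the p53 target Zmat3, an RNA-binding protein (1.22 and -1.08, adjusted p = 0.047). Collagens had the most interaction calls of any list, 5 of 37 (Col6a1, Col6a2, Col6a3, Col27a1 and Col28a1), with a list median of -0.79 in control and 0.54 in knockout cells. The other matrix genes had 4 of 37 (Loxl2, Mfap2, Mfap5 and Tgfbi), with medians of -0.40 and -0.13. In all 9 the ratio was higher in knockout cells. Of the other genes named here, Ccnd1 and Zfp36l2 passed it. Ccnd1 was at 73.1 and 92 CPM in knockout total and 45.7 and 52.1 CPM in knockout granule RNA, where control cells held 89.5 and 72.9 CPM in total and 230.4 and 230.03 CPM in granule RNA. Zfp36l2, an AU-rich element binding protein, was at 387 and 353 CPM in knockout total and 236 and 203 CPM in knockout granule RNA, where control cells held 134 and 179 CPM in total and 538 and 464 CPM in granule RNA.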

How the data were processed

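Poly(A)-selected RNA of 2 control total and 2 control granule libraries was compared, with the 4 knockout libraries used for a genotype interaction, for a fit of their own and for knockout values given beside control values. The deposited values are raw counts per gene for 39017 genes, which the authors made from reads aligned with STAR to GRCm38 (mm10) and analysed with DESeq2, per the submitters' processing notes. The counting program, its strand setting and its annotation release are not given in the sources used here. Libraries held 67257220 to 118426371 counts, and no interval was needed beyond the 2 replicates.

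Genes were filtered with filterByExpr, scaled with TMM and tested in edgeR 4.0.16 (R 4.3.3) by quasi-likelihood F tests on the 4 libraries alone (2 residual degrees of freedom), with Benjamini-Hochberg adjustment over all 17364 genes and a threshold of 0.05. Standard errors were taken from the fold change and its F statistic. DESeq2 1.42.0 was an alternative. The code was tested on simulated data. Symbols, exon overlaps, lengths, GC content and 3′ UTR sequences came from GENCODE M21 (37693 genes matched), and promoters from RefSeq.

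The genes compared, the gene lists and the tests were chosen with earlier results of these data known. Named genes are the 10 highest and 10 lowest calls among genes that average 5 CPM or more, have an official symbol and show no overlap between groups. In each list they are up to 3 highest and 3 lowest called members and the 2 most abundant, and over all genes the 5 largest gains and losses of CPM and Mettl3. Other genes were named after their values were seen, where a count was 5 or fewer, for a motif or sequence, or as a relative of a named gene.

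Replicates carry the numbers 1 and 2 in each group, which pair nothing by label. The correlation of replicate 1 minus 2 between groups was -0.10 over 17364 genes, so the numbers were not treated as pairs. Other scalings, filters, models and leaving out each library were tried. An item withheld from this work is not reported here.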

Additional observations from a re-analysis of the deposited data

Results flagged for a closer look

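The granule to total ratio of 13 genes named above differed between knockout and control cells by the interaction test of edgeR over all genes. For Ccnd1 the log2 ratio was lower in knockout cells by a difference of -2.44 (adjusted p = 0.0437), with control at 1.62 and knockout at -0.89. For Zfp36l2 the difference was -2.65 (adjusted p = 0.0405), with control at 1.81 and knockout at -0.92. For Zmat3 it was -2.22 (adjusted p = 0.047), with control at 1.22 and knockout at -1.08, and for Ifi27l2a it was 5.10 (adjusted p = 0.0394), with control at -3.56 and knockout at 1.48. Among collagens the difference was 2.70 for Col6a1, 3.36 for Col6a2, 2.65 for Col6a3, 3.40 for Col27a1 and 3.801 for Col28a1. Among other matrix genes it was 4.08 for Loxl2, 3.29 for Mfap2, 3.38 for Mfap5 and 3.34 for Tgfbi, with adjusted p-values of these 9 from 0.0374 to 0.0437. With the replicate number as a block none of the 13 passed, at adjusted p-values of 0.125 to 0.131. Without knockout total replicate 1 or replicate 2, which leaves 1 library in that group, all 13 differences kept their direction. Ccnd1 was then at -2.51 and -2.55, and Col6a3 at 2.625 and 2.48. A change of sign was unlikely in advance, because the 13 genes were picked by the interaction test on these same libraries. In genes averaging 5 CPM or more, Ccnd1 and Zmat3 missed the threshold, at 0.0516 and 0.0564.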

How the results depend on the processing

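Against 7354 called genes (3861 higher, 3493 lower), the 4-group model on all 8 libraries called 1906 (1116 and 790) and a test beyond a log2 fold change of 1 called 1604 (933 and 671). Leaving out each library in turn gave 3778 to 10007 called genes, 2233 to 5376 higher and 1545 to 4631 lower, and the low values came without granule replicate 1 or 2 (3778 and 4181). The other scalings and filters, DESeq2 and the GC, length and depth corrections gave 5306 to 7988. With the replicate block 6860 genes were called and 6594 of the 7354 calls kept their direction and call. The replicate block left 0 of the 98 genes that differed between genotypes, 46 remained as a count with at least 5 CPM, and 3712 and 9349 were called without knockout total replicates 1 and 2, so that comparison rests on few libraries. All 23 lists above all genes and all 17 below stayed there with the 3 other scalings, DESeq2, the 4-group model, the replicate block and each library left out. These settings could hardly move a list. Its place is read from differences between libraries minus those of all genes, which scaling and the choice of model leave nearly unchanged. Leaving out a library keeps only pairings already used. With the length trend removed 21 and 15 lists stayed, at 5 CPM or more 21 and 16, and with the GC trend removed 23 and 16. In these last settings 27, 27 and 23 of the 46 list medians moved by more than 1 SD over the pairings. These counts leave out 1 list that changed sign with the length trend removed and 1 at 5 CPM or more. The list of nuclear long noncoding RNAs stood at 0.21 with a mean of at least 5 CPM and giant mRNAs at -0.0035 with the length trend removed, against -0.73 and 0.75 relative to all genes. The rank correlation with GC content was -0.56 at 5 CPM or more, -0.068 with the GC trend removed and -0.33 to -0.52 with a library left out, the first without total replicate 1. That with spliced length was 0.37 and with 3′ UTR length 0.32 at 5 CPM or more, the latter 0.12 with the GC trend removed. With ATTTA in place of the nonamer the difference of medians was 0.50 against 0.34. The snoRNA median relative to all genes was -0.12 for the 3 genes with at least 5 CPM. Of 201 calls among named genes, 106 were kept in the 4-group model, 107 beyond a log2 fold change of 1, 145 and 147 without granule replicates 1 and 2, and 166 with the GC trend removed, and in each other setting with all 201 tested at least 184 were. Signs turned in Ifih1 (-0.10 with upper-quartile scaling, -0.014 with library size alone, -0.0013 at 5 CPM or more, -0.39 with the GC trend removed, -0.37 with the block too, -0.22 with the length trend removed, -0.30 to 0.76 with a library left out, the first without total replicate 1). They also turned in Col6a3 (0.19 with the GC trend removed, with or without the block, and -0.41 to 0.0025 with a library left out, the last without granule replicate 2), Loxl2 (0.009 and 0.014), Ddit4 (0.15 with the GC trend removed, with or without the block), Ifit2 (-0.12 and -0.10) and Eef2 (0.21 and 0.22, and -0.42 to 0.039 with a library left out, the last without total replicate 1). With the length trend removed Col12a1 was at -0.048, Dusp8 at -0.037, G3bp1 at -0.21 and Hspe1 at 0.11, and Hspe1 ranged from -0.34 to 0.22 with a library left out, the last without total replicate 2. The cause of these changes was not tested. With 2 residual degrees of freedom, calls rest on the spread shared across genes.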
